A study of Homo sapiens with 6 samples.

Results

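The 10 genes described here are the core of the YAP-TEAD transcription module: the coactivators YAP1 and WWTR1 (TAZ), the DNA-binding factors TEAD1, TEAD2, TEAD3 and TEAD4, and the targets CYR61 (now CCN1), CTGF (now CCN2), AMOTL2 and ANKRD1. They were chosen by name, as the rows with those symbols among 53719 rows of a gene count table, of which 32300 held a count in at least 1 library. RNA-seq was done on H9, an established human embryonic stem cell line, grown in RSeT, a commercial medium labelled as keeping a naive state. One group of 3 libraries, labelled ALR Knockdown, came from cells given a gapmer directed at ALR, the RNA made from the alpha satellite repeats of centromeres. The other 3 came from cells given a control gapmer. Gapmers are antisense oligonucleotides whose DNA centre recruits RNase H to cleave the paired RNA. Both groups were transfected for 48 h and shared the cell line, the medium and the transfection, and the labels name no untransfected group. Libraries carry the letters a, b and c. The labels do not say whether these were separate cultures, so p-values measure the spread between libraries, which may be technical.

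YAP1 and WWTR1 do not bind DNA themselves. When the Hippo kinases are active they are phosphorylated and held in the cytoplasm, and when those kinases are inactive they enter the nucleus and activate genes through a TEAD factor, which reads a short DNA motif. CYR61 and CTGF encode secreted matricellular proteins and are the usual transcriptional readouts of the pathway. AMOTL2, an angiomotin-family scaffold at cell junctions, is a target that also holds YAP back, and ANKRD1 encodes a nuclear ankyrin-repeat cofactor best known from muscle. Control of YAP is largely through phosphorylation and location, which RNA levels do not measure.

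The sequences shown first are the stretches before the start sites in which the TEAD core motif GGAATG was found, since it is by this motif that TEAD factors reach a target. RefSeq promoter windows (GRCh38.p14, 250 bases before the annotated start) were matched for 7 of the 10 members, in 10 windows. The motif was searched on both strands, where the opposite strand reads CATTCC. It was found in 4 of these windows, those of YAP1, CTGF, AMOTL2 and ANKRD1, against 11.9% of 35116 windows of all genes. CTGF held 3 copies, a number reached or passed in 0.0826% of all windows. All 3 lie on the strand of the gene, with the outer ends 169, 104 and 95 bases before the start, and the nearer pair is separated by a short spacer. The CTGF window is chr6:131951373-131951622 on the minus strand, with the motif in capitals.
CTGF: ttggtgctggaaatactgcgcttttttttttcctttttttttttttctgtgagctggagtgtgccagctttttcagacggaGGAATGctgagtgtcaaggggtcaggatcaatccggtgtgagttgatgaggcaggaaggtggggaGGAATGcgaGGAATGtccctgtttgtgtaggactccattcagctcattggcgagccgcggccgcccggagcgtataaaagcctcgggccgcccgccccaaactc
For the other 3 genes, 30 bases around each motif are shown, again 5′ to 3′ on the strand of the gene with the motif in capitals. They are YAP1 at chr11:102110273-102110302 (plus strand, motif 162 to 157 bases before the start), AMOTL2 at chr3:134374499-134374528 (minus strand, 69 to 64 bases), and ANKRD1 at chr10:90921290-90921319 and chr10:90921198-90921227 (minus strand, 220 to 215 and 128 to 123 bases). The AMOTL2 stretch and the nearer ANKRD1 stretch lie within annotated exons.
YAP1: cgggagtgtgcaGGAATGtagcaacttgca
AMOTL2: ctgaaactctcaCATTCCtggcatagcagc
ANKRD1 far: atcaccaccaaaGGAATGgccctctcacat
ANKRD1 near: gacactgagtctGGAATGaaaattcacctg
The AP-1 motif TGANTCA, which many YAP-TEAD sites elsewhere in the genome sit beside, was found once among the member windows, in that of ANKRD1, against 6.57% of all windows. A match describes the letters of the window and not a bound site.

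Library totals ran from 25087629 to 36576752 counts. The rows that held a count numbered 29678 in knockdown library a and 25898 to 26788 in the other libraries. The pluripotency genes POU5F1, NANOG and LIN28A were expressed in every library, while SOX2 was listed at 0 in all 6. POU5F1 and LIN28A were higher in all 3 knockdown libraries (edgeR adjusted p = 0.0948 and 0.269), and NANOG overlapped. SOX2 lies inside SOX2-OT on the same strand. The 8 naive markers were mixed, with a summed level of 53.7 to 62.1 CPM in the knockdown and 51.4 to 58.2 CPM in the controls. TFCP2L1 (23.9 to 32.2 CPM) and DPPA3 (18.1 to 21.9 CPM) made up most of it and KLF5 stayed near 5 CPM, whereas KLF17 had 1 to 10 counts per library, KHDC1L had 0 and DPPA5 stayed near 1 CPM. The last 3 do not match the labelled naive state. CPM is counts per 1000000 counts of tested genes, after TMM scaling. Of 8 fibroblast markers, 4 were under 1 CPM, among them DCN at 1 to 11 counts and LUM at 0 or 1. COL1A2 (60.7 to 81.0 CPM) and COL1A1 (18.8 to 24.8 CPM) carried the summed level of 92.0 to 101.3 CPM in the knockdown and 94.97 to 107.4 CPM in the controls. The summed level of the trophectoderm markers was higher in the knockdown libraries (311.0 to 361.9 CPM) than in the controls (274.8 to 293.2 CPM). KRT8 and KRT18 made up most of that sum and were higher in all 3 knockdown libraries (edgeR adjusted p = 0.115 and 0.0626). ENPEP went the other way, with 14.7 CPM on average in the knockdown and 17.1 CPM in the controls and no overlap. Its edgeR adjusted p was 0.321. These 3 markers did not pass an adjusted p of 0.05, and the groups did not overlap for 18.9% of all genes tested. The other 7 of the 10 markers, GATA3, CDX2, CGA and HAND1 among them, stayed under 1 CPM on average.

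No member changed past the threshold. All 10 had enough counts to be tested, and 0 of 10 passed an adjusted p of 0.05 in edgeR's quasi-likelihood test over 19721 genes, nor in DESeq2 or limma-voom. Among all genes tested, 0.786% passed in either direction, 0.137% as higher and 0.649% as lower. Of the 155 genes behind that share, 17.4% were higher in the knockdown, a split that became 28.7% with upper-quartile scaling and 35.4% with library sizes alone. At an unadjusted p under 0.05 a single member was called by each of the 3 tools, TEAD1, which was lower. That is 1 of 10, against 14.3% of all genes (6.68% higher and 7.57% lower). The 3 knockdown values lay wholly apart from the 3 control values for 2 members, higher for TEAD4 and lower for ANKRD1, against 18.9% of all genes. Fitted changes were above 0 for 5 members and below 0 for 5, of which AMOTL2 turned to just above 0 with library sizes alone or upper-quartile scaling. Their median was -0.002 on the log2 scale, and the median of all genes tested was 0.02. In bulk RNA, fewer cells expressing a gene and less RNA per cell cannot be told apart.

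**Figure D1:**
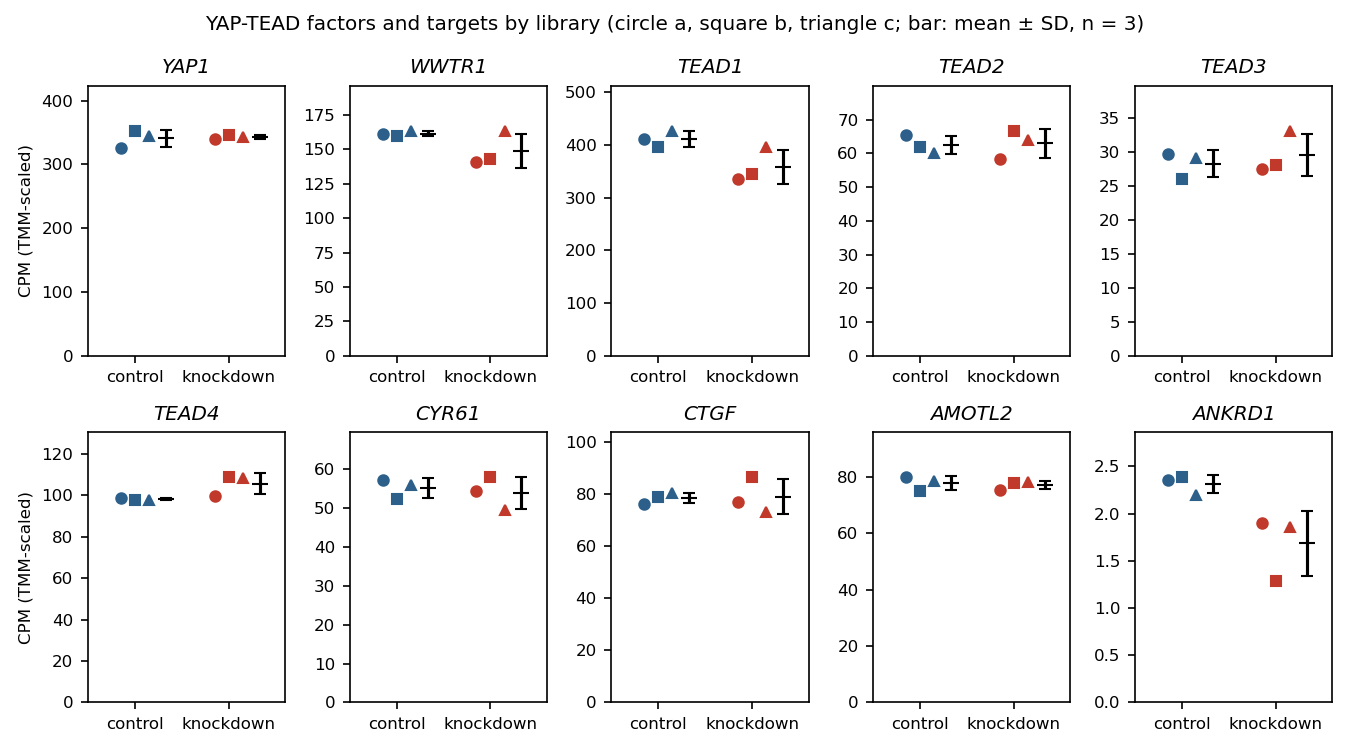
Level of each of the 10 members in CPM (a linear axis for each gene) in each of the 6 libraries, with control and knockdown side by side and a bar at each group mean ± SD. Points of the groups interleave for 8 members, TEAD4 is higher in all 3 knockdown libraries, and ANKRD1 is lower in all 3.

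**Figure D2:**
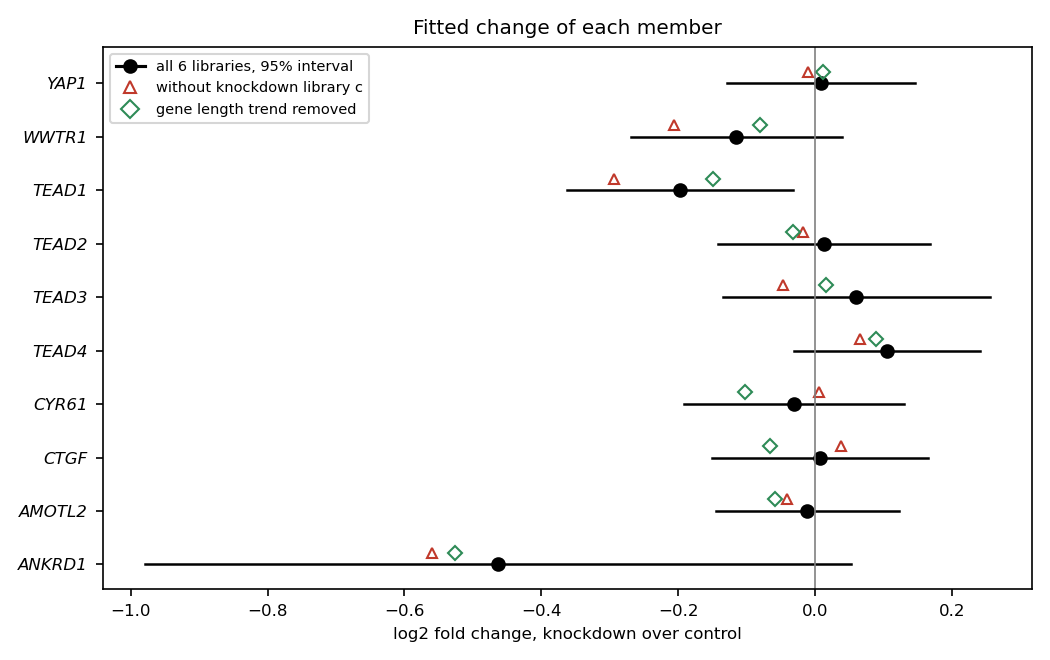
Fitted log2 fold change of each member, knockdown over control, with its 95% interval (filled points, all 6 libraries), the value without knockdown library c (triangles) and the value after removing the gene length trend (diamonds). The interval of TEAD1 alone leaves out 0, and ANKRD1 has the widest interval.

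Both coactivators were abundant, and YAP1 was nearly flat. YAP1 (ENSG00000137693.13, chr11:102110461-102233423, plus strand) measured 339.6, 346 and 343 CPM in the knockdown (always in the order a, b, c) and 326, 352 and 344 CPM in the controls. The knockdown values lay inside the control range. The means were 343 ± 3.40 and 341 ± 13.8 CPM (SD, n = 3 each). Its log2 fold change was 0.01 ± 0.06 (SE), with 0.966 as the adjusted p of edgeR. Its 95% interval, 0.915-fold to 1.11-fold, bounds how large a change these libraries leave room for. WWTR1 (ENSG00000018408.14, chr3:149517235-149736714, minus strand), the paralogue of YAP1, measured 141, 143 and 163 CPM in the knockdown and 161, 159 and 163 CPM in the controls. Knockdown libraries a and b were below every control, and c was level with the highest control. The log2 fold change of -0.11 ± 0.07 had an edgeR adjusted p of 0.495. Without knockdown library c it was -0.21 with an edgeR adjusted p of 0.0380, so the call for WWTR1 turned on that library. Calls over all genes turned on it too, with 1309 of 20456 genes past the threshold in that fit and 155 of 19721 with all 6 libraries.

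The ratio of YAP1 to WWTR1 counts was 2.41, 2.43 and 2.10 in the knockdown and 2.02, 2.21 and 2.11 in the controls. Here too libraries a and b stood above all controls and c did not. The mean log2 difference was 0.13, with a two-sided exact permutation p of 0.30, adjusted to 0.45 over 3 ratios. These ratios were chosen after the values had been seen, and 3 against 3 libraries cannot give a p under 0.10. Divided by exon length, YAP1 made up 76.3%, 76.4% and 73.7% of the pair in the knockdown libraries and 72.9%, 74.7% and 73.9% in the controls.

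Among the DNA-binding factors, TEAD1 was the member nearest to a change. TEAD1 (ENSG00000187079.16, chr11:12674591-12944483, plus strand) measured 336, 344 and 396 CPM in the knockdown and 411, 395 and 427 CPM in the controls. Knockdown libraries a and b were below every control, while c was level with control b. The means were 359 ± 32.5 and 411 ± 15.7 CPM (SD, n = 3 each). The log2 fold change was -0.20 ± 0.08, its interval 0.778-fold to 0.978-fold, and its p of 0.0227 became 0.268 after Benjamini-Hochberg adjustment of the edgeR values. Without knockdown library c, where 1309 of 20456 genes passed, TEAD1 fell by 0.29 on the log2 scale, with an edgeR adjusted p of 0.00849. With each of the other 5 libraries left out in turn it did not pass.

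TEAD4, a factor known for its part in the first lineage choice of the embryo, differed in the other direction. TEAD4 (ENSG00000197905.8, chr12:2959330-3040673, plus strand) measured 99.7, 109 and 108 CPM in the knockdown and 98.7, 97.7 and 97.9 CPM in the controls. All 3 knockdown libraries were above all 3 controls, library a by about the width of the control range. The log2 fold change of 0.11 ± 0.06 had an edgeR adjusted p of 0.477. Of the trophectoderm markers above 1 CPM, KRT8 and KRT18 were higher in the same libraries and ENPEP was lower. The defining genes GATA3 and CDX2 were near 0, and the part of such cells in the TEAD4 values was not tested.

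TEAD2 and TEAD3 showed no separation of the groups. TEAD2 (ENSG00000074219.13, chr19:49340595-49362457, minus strand), the TEAD first described in neural precursors and early embryos, measured 58.3, 66.6 and 64.0 CPM in the knockdown and 65.4, 61.9 and 60.0 CPM in the controls. The groups overlapped, and the interval of the change ran from 0.906-fold to 1.12-fold. TEAD3 (ENSG00000007866.20, chr6:35473597-35497076, minus strand), known from placenta, measured 27.5, 28.0 and 33.0 CPM in the knockdown and 29.7, 26.0 and 29.1 CPM in the controls. Its highest value was knockdown library c and its lowest control b. The edgeR adjusted p was 0.954 for TEAD2 and 0.807 for TEAD3.

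Since TEAD1 and TEAD4 differed in opposite directions, their balance within each library was compared. The ratio of TEAD4 to TEAD1 counts was 0.297, 0.315 and 0.274 in the knockdown and 0.240, 0.247 and 0.229 in the controls. All 3 knockdown libraries, c included, were above all 3 controls. The mean log2 difference was 0.30, with a two-sided exact permutation p of 0.10, the smallest that 3 against 3 can give, adjusted to 0.30 over the 3 ratios. TEAD4 spans 81.3 kb and TEAD1 269.9 kb, and across all genes the change varied with span, as given below. The part of gene span in this ratio was not tested. Per kb of exon, TEAD4 was the largest part of the summed TEAD level in every library, at 41.5% ± 1.07 in the knockdown and 38.1% ± 0.643 in the controls (SD, n = 3 each). TEAD1 followed with 31.1% ± 1.39 and 35.3% ± 0.913. TEAD2 made up 18.8% ± 0.871 and 18.5% ± 0.753, and TEAD3 8.63% ± 0.502 and 8.17% ± 0.404. The order of the 4 factors was thus the same in both groups. It rests on joined exon lengths of 2.272 kb for TEAD4 and 10.279 kb for TEAD1, which need not be those of the transcripts used. In control c the shares of TEAD4 and TEAD1 were close, at 37.7% and 36.3%.

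**Figure D3:**
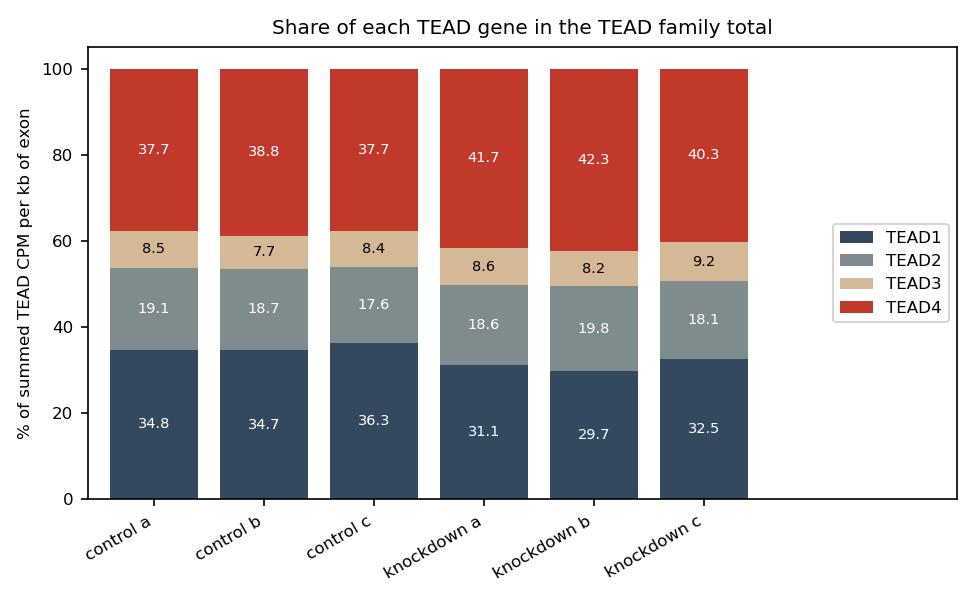
Share of each TEAD factor in the summed TEAD level (percent of CPM per kb of exon) in each of the 6 libraries. TEAD1 takes 29.7% to 32.5% in the knockdown libraries and 34.7% to 36.3% in the controls, and TEAD4 40.3% to 42.3% and 37.7% to 38.8%.

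The pair of secreted targets did not separate the groups. CYR61 (ENSG00000142871.16, chr1:85580761-85583962, plus strand) measured 54.4, 57.9 and 49.6 CPM in the knockdown and 57.2, 52.4 and 55.9 CPM in the controls. Knockdown library b was the highest of the 6 and knockdown library c the lowest. CTGF (ENSG00000118523.5, chr6:131948176-131951373, minus strand), whose promoter window held the 3 motif copies shown above, measured 77.2, 86.5 and 73.4 CPM in the knockdown and 76.4, 79.2 and 80.4 CPM in the controls. Its highest and lowest values were the same libraries as for CYR61. The log2 fold changes were -0.03 ± 0.07 for CYR61 and 0.01 ± 0.07 for CTGF, and the intervals ran from 0.875-fold to 1.09-fold and from 0.901-fold to 1.12-fold. The ratio of CTGF to CYR61 counts was 1.42, 1.49 and 1.48 in the knockdown and 1.34, 1.51 and 1.44 in the controls (mean log2 difference 0.04, two-sided exact permutation p = 0.70, adjusted 0.70).

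AMOTL2 was the steadiest target, and ANKRD1 the member with the largest fitted change. AMOTL2 (ENSG00000114019.14, chr3:134355874-134375479, minus strand) measured 75.5, 77.9 and 78.3 CPM in the knockdown and 79.9, 75.0 and 78.6 CPM in the controls. Every knockdown value lay inside the control range, and the interval of the change was 0.904-fold to 1.09-fold. ANKRD1 (ENSG00000148677.6, chr10:90912096-90921276, minus strand) measured 1.90, 1.29 and 1.86 CPM in the knockdown and 2.36, 2.38 and 2.20 CPM in the controls. All 3 knockdown libraries were below all 3 controls. These levels rest on few reads, 54, 43 and 47 counts in the knockdown and 67, 74 and 80 in the controls, whereas each other member had at least 779 counts in every library. The log2 fold change of ANKRD1 was -0.46 ± 0.24 with an interval of 0.507-fold to 1.04-fold, and its edgeR p of 0.0738 became 0.402 after adjustment. Without knockdown library b, its lowest, the log2 fold change was -0.30.

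Compared per kb of exon, the members spanned a wide range of levels. The mean over all 6 libraries was highest for YAP1, at 54.3 CPM per kb, and then fell through TEAD4 at 44.8, TEAD1 at 37.4 and CTGF at 33.7. CYR61 followed at 22.2 CPM per kb, TEAD2 at 21.0, WWTR1 at 18.4, AMOTL2 at 13.0, TEAD3 at 9.48 and ANKRD1 at 1.01. The neighbours TEAD1 and CTGF overlapped across libraries, as did CYR61 and TEAD2, so their order is not settled. The exon length is that of all GENCODE 29 exons joined, which need not be the transcripts these cells use. Among the 19721 genes tested, ANKRD1 stood at percentile 25.7 of mean CPM, the lowest of the members, while YAP1 and TEAD1 stood at percentiles 97.9 and 98.3.

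WWTR1 and TEAD1 are also the members with the longest gene spans, 219 and 269.9 kb, and across all genes the change varied with span. The median log2 fold change was 0.07 over 3217 tested genes of up to 10 kb and -0.07 over 1483 genes of more than 200 kb. Split by library, the median of the long genes lay -0.07, -0.27 and -0.002 from the control mean in the knockdown libraries. TEAD1 lay -0.29, -0.25 and -0.05 from it and WWTR1 -0.20, -0.18 and 0.02. Library c was thus nearest to the controls for both members and for long genes as a class, whereas in library a both members were lower than that class. With a trend on gene length removed, TEAD1 had a log2 fold change of -0.15 (edgeR unadjusted p = 0.137) and WWTR1 of -0.08. Under the same fit TEAD4 had 0.09 and ANKRD1 -0.53 (edgeR unadjusted p = 0.0496), and no member passed the adjusted threshold. YAP1, with a span of 123 kb, lay -0.004, 0.02 and 0.009 from the control mean, above the medians of its span class (100 to 200 kb) of -0.04, -0.07 and -0.02 in the same libraries.

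**Figure D4:**
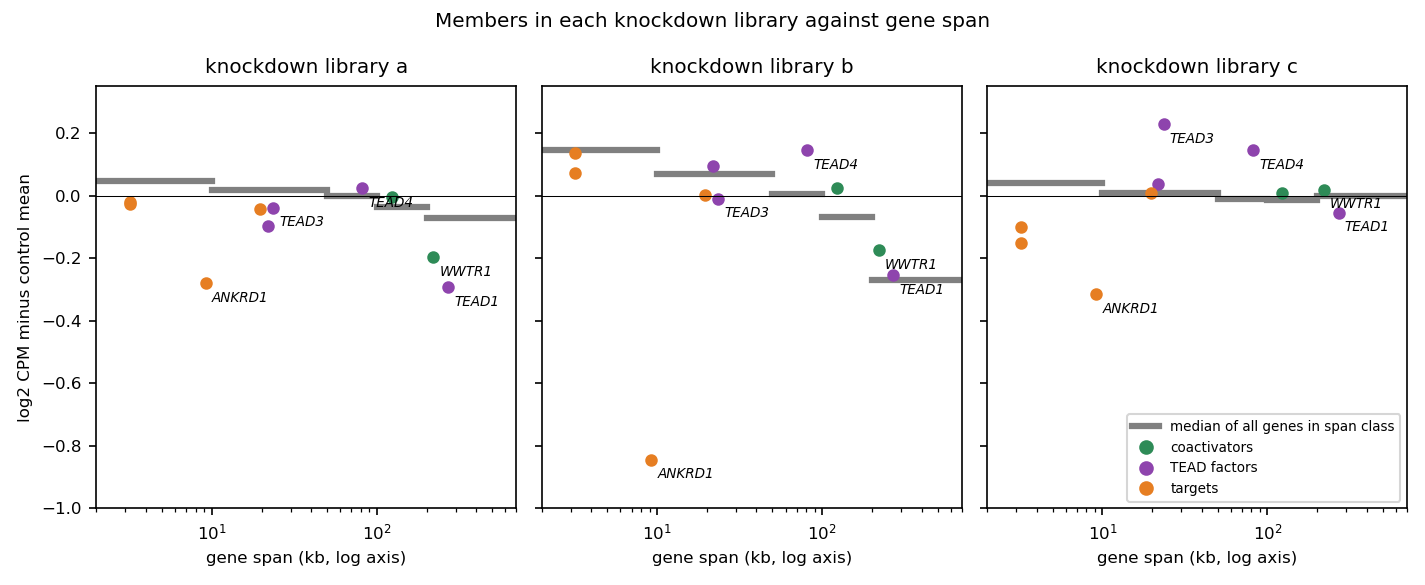
Log2 CPM of each member minus the control mean, in each knockdown library, against the span of its gene in kb (log axis), with grey bars for the median of all tested genes in each span class. TEAD1 and WWTR1 lie well below 0 in libraries a and b and near 0 in library c, and the grey bar of the longest class moves down most in library b.

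Of the genes around the module, a single one passed the adjusted threshold with all 6 libraries in edgeR. It was AXL (ENSG00000167601.11, on chromosome 19), a receptor tyrosine kinase that is a known YAP target, which rose from 17.6 ± 0.385 to 24.2 ± 1.54 CPM (SD, n = 3 each). Its values were 25.2, 24.9 and 22.4 CPM in the knockdown and 17.9, 17.8 and 17.2 CPM in the controls, with no overlap. The log2 fold change was 0.46 ± 0.08, with an edgeR adjusted p of 0.0244. AXL passed in 10 of 15 alternative fits, with adjusted p between 0.000387 and 0.182. It did not pass without control a (0.115), b (0.128) or c (0.182), nor without knockdown a (0.0644) or b (0.0971). AXL was 1 of 28 tested genes in a list of other YAP-TEAD targets, in which 6 were higher and 4 lower at an unadjusted p under 0.05. Over all genes tested the shares were 0.786% at the adjusted threshold, and 6.68% higher and 7.57% lower at the unadjusted one. The fitted change was above 0 for 14 of them and below 0 for 14, with a median of -0.01. Among its most abundant genes were FSTL1, a secreted glycoprotein (172 and 148 CPM in knockdown and control, edgeR adjusted p = 0.147), and ASAP1, an Arf GTPase-activating protein (198 and 237 CPM, adjusted p = 0.191). Both passed in 2 of the 15 alternative fits. FSTL1 did so with DESeq2 (adjusted p = 0.0494) and without knockdown library c (edgeR adjusted p = 0.0161), and ASAP1 with no low-count filter (0.0259) and without knockdown library c (0.00271). Over all genes, 530 of 19721 passed with DESeq2, 1064 of 32300 with no low-count filter and 1309 of 20456 without knockdown library c. PTPN14, a phosphatase that binds YAP, had a log2 fold change of -0.04.

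The kinase core that acts on YAP1 and WWTR1 showed small values. Of its 7 tested genes 0 passed the adjusted threshold by edgeR and 1 was lower at an unadjusted p under 0.05, a call made for 14.3% of all genes in either direction. The fitted change was below 0 for 5 of the 7, with a median of -0.10, and for 8985 of the 19721 genes tested. The knockdown values lay wholly below the controls for 3 of the 7 and wholly above for 0. Such separation in either direction was seen for 18.9% of all genes. STK3 (MST2), one of the upstream kinases, stood at -0.15 on the log2 fold change scale (edgeR adjusted p = 0.609), STK4 (MST1) at 0.03 and MOB1A, the kinase adaptor, at 0.01. The gene of STK3 spans 571.6 kb, longer than TEAD1 or WWTR1, and with the gene length trend removed its log2 fold change was -0.06. Leaving out 1 library moved STK3 in either direction. Its log2 fold change was -0.34 without knockdown library c (edgeR adjusted p = 0.0187) and -0.04 without knockdown library b. Over all genes, 1309 of 20456 passed in the fit without knockdown library c. Of 32 regulators further upstream, 0 passed, 2 were higher and 3 lower at an unadjusted p under 0.05, and the median was 0.02. These 5 of 32 are near the share over all genes. The kinases MAP4K4 and TAOK1 had -0.12 and 0.08, and the scaffold WWC2 -0.08. VGLL4, which competes with YAP for TEAD factors, and its relative VGLL3 both had -0.02, the only 2 of 4 cofactor genes that could be tested.

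Genes of SRF and its coactivator MRTF, which respond to actin and share targets with YAP, were counted for comparison. Of 17 tested, 0 passed by edgeR, 2 were higher and 1 lower at an unadjusted p under 0.05, and the fitted change was above 0 for 12 with a median of 0.04. The 3 of 17 called are near the 14.3% of all genes, of which 10736 of 19721 had a fitted change above 0. Of the cytoplasmic actins, ACTB had a log2 fold change of 0.06, and ACTG1 averaged 2222 CPM in both groups. FLNA, an actin crosslinker, had 0.20 (edgeR adjusted p = 0.252).

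**Figure D5:**
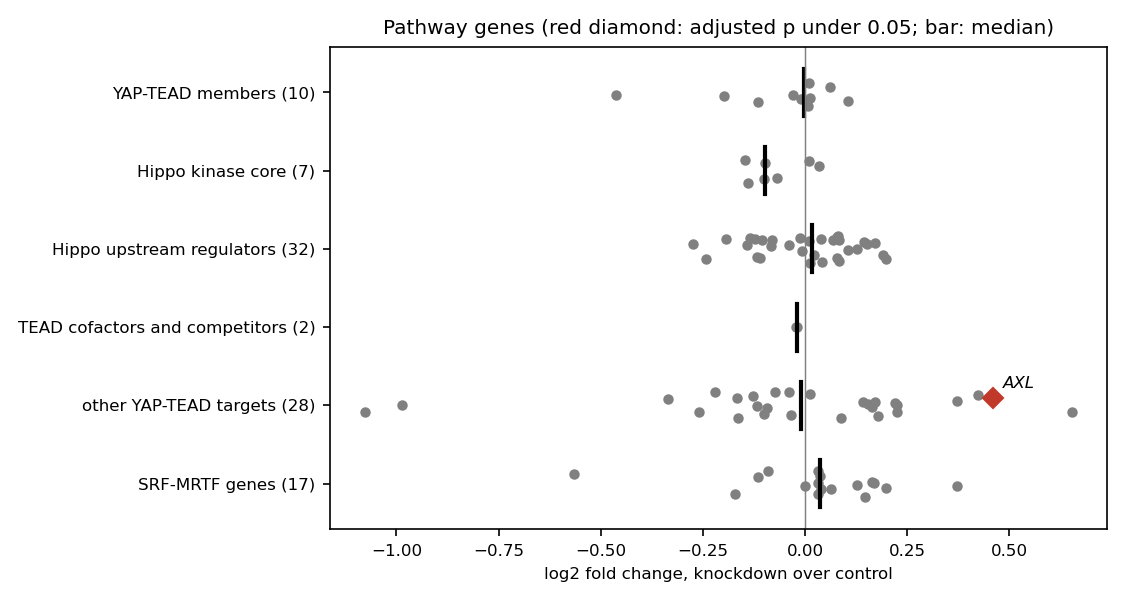
Fitted log2 fold change, knockdown over control, of every tested gene in the 10-member module and in the 5 lists of pathway genes, with the number tested in brackets and a bar at the median. AXL alone is past the adjusted threshold, and the medians lie between -0.10 and 0.04.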

How the data were processed

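The authors deposited raw read counts per gene symbol for 6 libraries of total RNA made with a directional kit. Per the submitters' processing notes, Trimmomatic 0.39, STAR 2.7.8a, featureCounts and Subread were used with build hg38. The annotation, strand setting and treatment of reads that align to several places are not given in the sources used here. So reads of YAP1, WWTR1, TEAD1, TEAD2, CTGF and AXL cannot be told apart from those of genes annotated on the opposite strand. Reads of AMOTL2 cannot be told apart from those of a pseudogene and a microRNA within it.

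From these counts, edgeR 4.0.16 (R 4.3.3; filterByExpr, TMM, glmQLFit and glmQLFTest with the group as the only term) tested 19721 genes, with two-sided p-values and the Benjamini-Hochberg adjustment over all of them, at a threshold of 0.05. The biological coefficient of variation was 0.103. Libraries held 25087629 to 36576752 counts, and standard errors hold the spread between libraries besides counting error. The method was checked on simulated counts. Alternatives were DESeq2 1.42.0, limma-voom 3.58.1, other scalings and filters, a replicate block, a spline on gene length (known for 81.0% of tested genes) and leaving out each library. Coordinates, overlaps and lengths came from GENCODE 29 and promoters from RefSeq (GRCh38.p14). Every member was named, as were, in each pathway list, the genes past the threshold and the 3 with the highest mean CPM. Members and lists were chosen with earlier results of these data known. Exact permutation tests (SciPy 1.17.1) compared the 3 ratios.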

Additional observations from a re-analysis of the deposited data

How the results depend on the processing

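The count of members past the adjusted threshold stayed at 0 in 14 of the 15 alternatives. With 1 library left out in turn it ran from 0 to 2, with 2 without knockdown c. In that fit 1309 of 20456 genes passed, against 155 of 19721 with all 6 libraries. Over all genes the count of 155 became 530 with DESeq2, 1064 with no low-count filter and 235 with the gene length trend removed, a fit that also tested fewer genes (15978, those with a known span, in place of 19721), and ran from 26 to 1309 with 1 library left out. With the replicate letter as a block, 393 genes and 0 members passed. Correlations of same-letter deviations from the group means were 1.23e-05, 0.116 and -0.0251. Libraries of different letters were not compared, so these values do not settle whether the letters pair the libraries. The causes were not tested.

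Values near 0 changed sign. With the gene length trend removed, the log2 fold change was -0.0320 for TEAD2, -0.0657 for CTGF, -0.0344 for MOB1A and 0.0094 for VGLL4. With library sizes alone it was 0.0159 for AMOTL2, 0.0053 for VGLL4, 0.0062 for VGLL3 and 0.0269 for ACTG1. With upper-quartile scaling it was 0.006 for AMOTL2 and 0.0173 for ACTG1, which with no filter had 0.0006. With 1 library left out in turn, it ran from -0.0151 to 0.0275 for YAP1, -0.0358 to 0.0634 for TEAD2, -0.0468 to 0.107 for TEAD3, -0.0915 to 0.0053 for CYR61, -0.0696 to 0.0373 for CTGF and -0.0429 to 0.0154 for AMOTL2. For pathway genes it ran from -0.0325 to 0.0677 for MOB1A, -0.0212 to 0.0641 for STK4, -0.0103 to 0.130 for TAOK1, -0.0873 to 0.0131 for VGLL4, -0.0775 to 0.0301 for VGLL3, -0.0037 to 0.112 for ACTB and -0.0615 to 0.0363 for ACTG1. The DESeq2 adjusted p of ANKRD1 was not given by the tool, and low counts limit its precision.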
